A study of Mus musculus with 21 samples.

Results

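A set of 44 genes was read that were active in reprogramming mouse cells grown with vitamin C and stood at a much lower level in the libraries that also carried Tet1CD. The genes were chosen from 12021 in the table of cells with vitamin C (Vc+). In each, the lowest value of the 4 libraries without Tet1CD was at least 30 and at least 2.5 times the highest value of the 3 libraries with it. These conditions held for 59 genes, and 15 of them were left out by name. Of the 12021 genes, 11060 met the floor of 30 alone. Active here means only that this floor was met, and many of the 44 genes had low values. The values of the Vc+ table chose the genes, so their lower level with Tet1CD in that table is given as a description and was not tested.

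All cultures came from ICR mouse embryo fibroblasts (MEFs) of embryonic day 13.5, used at passage 2. Reprogramming cells, here SKOM cells, were given retroviruses for Sox2, Klf4, Oct4 and Myc, controls included, and were collected at day 5 in medium with vitamin C (Vc+) or lacking it (Vc-). In each medium 7 libraries were made: a control labelled Flag+shLuc, Dnmt1, shDnmt1 (a hairpin against Dnmt1), shp53+shDnmt1 (hairpins against p53 and Dnmt1), Tet1CD, Tet1CD+Dnmt1 and Tet1CD+shDnmt1. The MEF table has 7 libraries without the 4 factors, or from a culture labelled 5C, whose meaning the labels do not give: MEF Flag+shLuc, MEF Dnmt1, MEF shDnmt1, MEF shp53, MEF shp53+shDnmt1, MEF Tet1-CD and 5C Flag+shLuc. The constructs came by retrovirus, over 48 hours per the labels, and the sources used here do not give the promoters that drive them, the number of embryos or the number of separate cultures. There was 1 library for every construct combination in a given setting. The p-values below therefore reflect the spread among these libraries alone, which may be technical.

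Vitamin C supports the iron-dependent dioxygenases, among them the Tet enzymes, which oxidise 5-methylcytosine in DNA and so open a path to its removal. Tet1CD carries sequence of Tet1, and CD usually stands for the catalytic domain, the part that holds the oxidising activity. Loss of methylation at a promoter is best known for permitting expression, while the genes described here stood lower in the cells with the construct. During reprogramming, fibroblasts lose mesenchymal features, take on epithelial ones and start to express genes of early embryonic cells.

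Each deposited value is a whole number, normalized by the authors inside its own table, so depth is unknown and levels are not compared between genes. The construct labels were checked on their targets: in Vc+ cells Tet1 ranged over 41 to 88 where Tet1CD was absent and 2503 to 3129 where it was present, and in Vc- cells over 11 to 19 and 2140 to 2632. Trp53 was lowest in the shp53+shDnmt1 library in each medium (621 and 453), and Dnmt1 was 1154 with shDnmt1 against 2346 in the control in Vc+ cells, and 527 against 984 in Vc- cells. In Tet1CD alone Dnmt1 was 1080 in Vc+ and 967 in Vc- cells. The libraries labelled Dnmt1 had Dnmt1 values of 2381 in Vc+ and 1001 in Vc- cells, close to those of the controls. Tet1 was not listed in the MEF table, so the label MEF Tet1-CD could not be checked in this way. The MEF Tet1-CD and 5C libraries stood apart in that 35.8% and 97.1% of their ranked values differed from those of the MEF control, against at most 12% for the other 4. None of 10 markers of established pluripotent stem cells (such as Nanog and Zfp42) was listed in either SKOM table, while 12 of 12 fibroblast markers were listed in Vc+ cells and 11 of 12 in Vc- cells. In Vc+ cells the summed value of the fibroblast markers was 12905 to 21498 without Tet1CD and 31274 to 32118 with it. The 5 listed of 12 macrophage markers, Laptm5, Ptprc, Itgam, Lyz2 and Cd68, summed to 338 to 493 without Tet1CD and 2449 to 3250 with it, and the 4 listed in Vc- cells to 302 to 400 and 633 to 735. Csf1r, Adgre1 and the C1q genes, which define macrophages, were not listed. The part of these cell types in the results below was not tested, and in bulk RNA fewer cells of a type and less RNA per cell cannot be told apart.

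Across the 44 genes, the ratio of the lowest value without Tet1CD to the highest value with it ran from 2.5 to 6 (median 2.86) in Vc+ cells. The fitted Tet1CD difference on the log2(value + 5) scale ran from -2.63 to -1.28 in the 42 genes above 0 in every library (median over all 44 -1.76), against a median of -0.07 over all 12021 genes. All 44 passed limma's test in that direction, as did 23.6% of all genes, a count that the choice of the genes fixes. Just inside the limit stood Kbtbd11 (ratio 2.5), Cdca7 (2.52), Ahsg (2.53) and Nup210 (2.59), and just outside it Vangl2 (2.48), Bex2 (2.47), Shisa8 (2.46) and Nasp (2.45). In the sentences that follow, the 4 values without Tet1CD are in the order control, Dnmt1, shDnmt1 and shp53+shDnmt1, and the 3 with it in the order Tet1CD alone, with Dnmt1 and with shDnmt1.

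**Figure D1:**
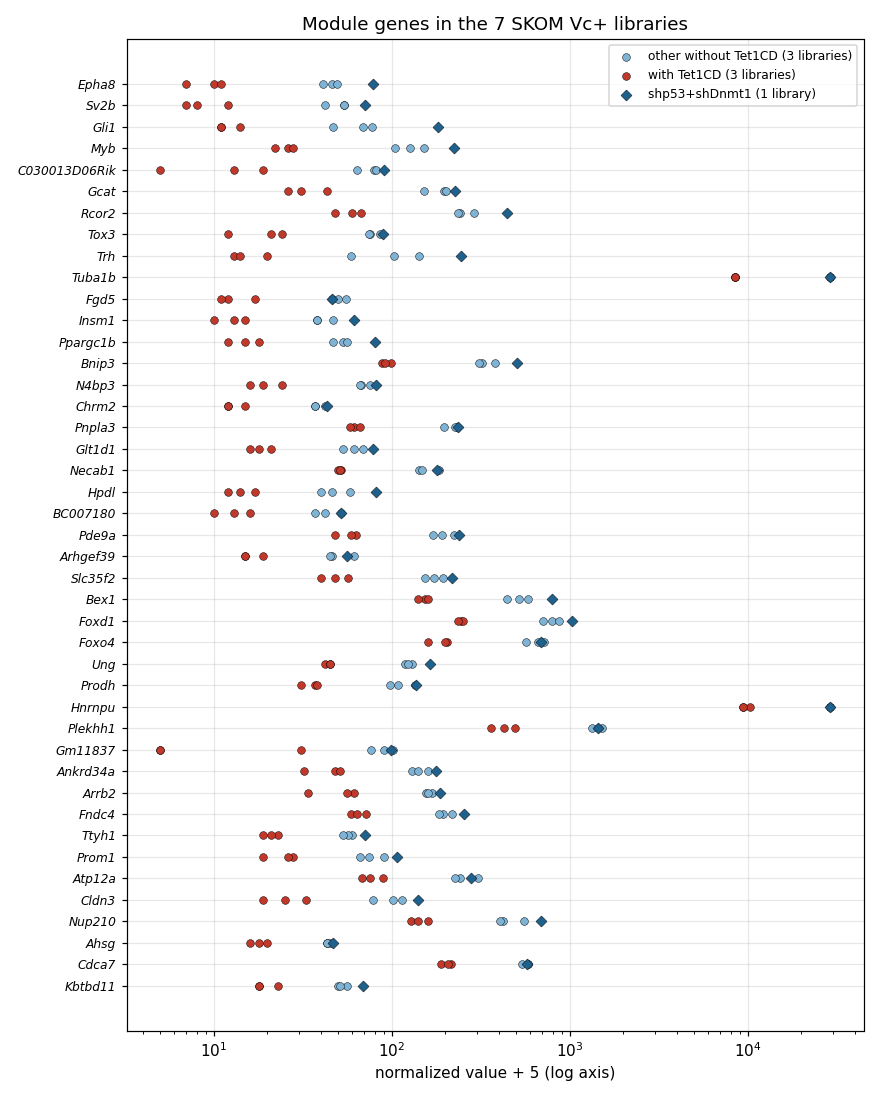
Normalized values (plus 5, log axis) of 43 of the genes in the 7 Vc+ libraries, ordered by the ratio of the lowest value without Tet1CD to the highest with it. Each point is 1 library: circles in blue lack Tet1CD, diamonds are the shp53+shDnmt1 library and circles in red carry Tet1CD. By the rule no red point reaches a blue one, and in most genes the diamond is the highest of the 4 libraries without Tet1CD.

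Regulators of transcription and chromatin made up 10 of the 44 genes. Gli1 (chromosome 10, 127329882 to 127341974, mm10), the zinc-finger factor that both carries out and reports Hedgehog signalling, had 42, 64, 72 and 176 without Tet1CD and 6, 6 and 9 with it. Myb, a transcription factor best known from blood progenitors, had 99, 146, 122 and 219 against 17, 21 and 23. Rcor2 (chromosome 19, 7267325 to 7275225), a CoREST family corepressor that works with the demethylase Lsd1, had 238, 284, 230 and 440 against 43, 62 and 55. In these 3 genes the highest value was in the shp53+shDnmt1 library, and the 3 libraries with Tet1CD lay close together. Foxd1, a forkhead factor of kidney stroma and other mesenchyme, had 698, 784, 864 and 1019 against 230, 239 and 246. Foxo4, a forkhead factor inhibited by insulin signalling, had 565, 710, 654 and 683 against 154, 200 and 194. Cdca7, which recruits the nucleosome remodeller Hells and is needed to maintain DNA methylation in some regions, had 530, 580, 579 and 573 against 202, 210 and 183. Its groups were 2.52 times apart at their nearest values, the smallest gap but that of Kbtbd11. The HMG-box factor Tox3 had 70, 81, 69 and 84 against 7, 16 and 19. Insm1, a zinc-finger factor of neuroendocrine differentiation, and Ppargc1b, a coactivator of mitochondrial genes, had low values throughout, with 33 to 56 and 42 to 75 without Tet1CD and 5 to 10 and 7 to 13 with it.

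Metabolic and mitochondrial genes numbered 7. Gcat (chromosome 15, 79030874 to 79038353) encodes the enzyme that follows threonine dehydrogenase in the breakdown of threonine to glycine and acetyl-CoA. It had 147, 191, 196 and 222 without Tet1CD and 26, 38 and 21 with it. Prodh, the mitochondrial proline dehydrogenase, had 103, 130, 93 and 132 against 26, 32 and 33. Both enzymes break down an amino acid in the mitochondrion, and in both the groups lay well apart. Bnip3 (chromosome 7, 138890836 to 138909519), a hypoxia-inducible protein of the outer mitochondrial membrane that promotes mitophagy, had 318, 373, 302 and 501 against 87, 94 and 83. Pnpla3, a lipid droplet acyl hydrolase, had 191, 226, 222 and 231 against 61, 56 and 53. Pde9a, a phosphodiesterase that breaks down cyclic GMP, had 166, 187, 219 and 232 against 54, 58 and 43. The remaining genes of the group, Glt1d1 and Hpdl, had 48 to 73 and 35 to 77 without Tet1CD and 11 to 16 and 7 to 12 with it.

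Receptors, membrane proteins and secreted proteins numbered 11, and several are best known from neurons or epithelia. Epha8 (chromosome 4, 136929419 to 136956816), an ephrin receptor, had the largest ratio of the 44 genes, with 41, 36, 44 and 73 without Tet1CD and 2, 5 and 6 with it. Sv2b, a synaptic vesicle glycoprotein, had 37, 49, 49 and 66 against 3, 7 and 2. Trh, the precursor of thyrotropin-releasing hormone, spread most without Tet1CD, with 54, 98, 138 and 239 against 15, 8 and 9. Values this low with Tet1CD make the size of the ratio uncertain. Atp12a, the non-gastric proton pump of epithelia, had 236, 299, 220 and 275 against 63, 70 and 84. Cldn3, a tight junction claudin, had 73, 97, 109 and 136 against 20, 28 and 14. Prom1, the membrane protein known as CD133, had 69, 85, 61 and 102 against 21, 23 and 14. These 3 genes are expressed in epithelia, and their values did not overlap between groups, as the rule requires. Slc35f2, a solute carrier, had 148, 167, 189 and 213 against 35, 43 and 52. Fndc4, a secreted fibronectin-domain protein, had 190, 214, 179 and 250 against 59, 67 and 54. The muscarinic receptor Chrm2, the chloride channel family member Ttyh1 and the serum protein gene Ahsg stood at 32 to 66 without Tet1CD and 7 to 18 with it.

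Genes of signalling and the cytoskeleton numbered 8, and 3 more serve in DNA repair, RNA binding and the nuclear pore. Bex1 (X chromosome, 136213972 to 136215513), a small adaptor of neurotrophin signalling with a near-identical neighbour gene, had 438, 576, 510 and 784 without Tet1CD and 136, 148 and 154 with it. Plekhh1, a protein with pleckstrin and FERM domains, had 1322, 1512, 1428 and 1443 against 354, 424 and 484. Necab1, a neuronal calcium-binding protein, had 138, 179, 143 and 175 against 46, 45 and 47. In Plekhh1 and Necab1 the spread within each group was smaller than the distance between the groups, while Bex1 without Tet1CD spread further than that distance. Arrb2, the beta-arrestin that ends signalling of G protein-coupled receptors, had 150, 163, 155 and 181 against 51, 56 and 29. The exchange factors Fgd5 and Arhgef39 and the Nedd4-binding protein gene N4bp3 stood at 40 to 76 without Tet1CD and 6 to 19 with it. Ung, the uracil glycosylase that removes uracil from DNA, had 113, 124, 118 and 159 against 40, 37 and 40. Nup210, a membrane protein of the nuclear pore, had 415, 549, 401 and 686 against 135, 155 and 123. Its highest value was again in the shp53+shDnmt1 library.

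Tuba1b, an alpha-tubulin, and Hnrnpu, a nuclear RNA-binding protein, stood at the ceiling of the Vc+ table, 28926, in all 4 libraries without Tet1CD. With Tet1CD, Tuba1b had 8451 in all 3 libraries and Hnrnpu 9343, 9343 and 10301. Near the top, values move in steps of the list of values that the libraries share, with 10 genes at the ceiling in each, so a small change of rank there gives a large change of value. Reads of Tuba1b could also have been split with its near-identical paralogs. The last 5 genes, Kbtbd11, Ankrd34a, BC007180, C030013D06Rik and Gm11837, have no role that is described here. Ankrd34a had 135, 124, 154 and 172 against 46, 27 and 43. BC007180 had 37, 47, 32 and 47 against 11, 5 and 8, and Kbtbd11 had 45, 51, 46 and 64 against 18, 13 and 13. C030013D06Rik had 74, 59, 77 and 85 against 14, 8 and 0, and Gm11837 had 85, 97, 71 and 94 against 0, 26 and 0. Because each reached 0 with Tet1CD, their fitted changes in Vc+ cells depend on the pseudocount and are left out of the ranges given here. Gm11837 and Necab1 overlap over 786 bases on opposite strands of chromosome 4, and the sources used here do not give the strand setting of the counting, so reads there cannot be assigned to either. Of the 43 genes with coordinates, 24 overlap a gene of the opposite strand in GENCODE M21. The share of all genes with such an overlap was not computed, so the count is not a trait of the set. On chromosome 6, Fgd5 lies 166 kb from Trh and 862 kb from Nup210.

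Whether Tet1CD lowered these genes without vitamin C was tested in the Vc- table, which the choice of the genes did not use. Of the 44 genes, 26 were listed there, and 18 were not. Every listed gene reached 32 in 2 or more libraries, so some genes can be listed because of their level without Tet1CD, and counts over the 26 are a description. Of the 26, 7 fell with Tet1CD and none rose (limma over 7 libraries, Benjamini-Hochberg adjusted over 10722 genes), against 7.38% of all genes that fell and 7.25% that rose. In a fit of a single medium the shp53 term takes up the shp53+shDnmt1 library. Each fitted Tet1CD change therefore compares the 3 libraries with Tet1CD to the control, Dnmt1 and shDnmt1 libraries. The shp53+shDnmt1 values printed below do not enter the size of that change. At an unadjusted p under 0.05, 15 were lower and 0 higher, while 3508 of all 10722 genes passed in either direction. The median change of the 26 was -0.40, against -0.01 over all genes, and their range was -0.89 to 0.29.

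Ung fell by 0.89 ± 0.13 on the log2(value + 5) scale (SE, limma adjusted p = 0.0122). Its Vc- values were 79, 73, 78 and 79 without Tet1CD and 48, 32 and 39 with it, so the groups did not overlap. Gcat fell by 0.85 ± 0.19 (limma adjusted p = 0.0337), with 49, 64, 55 and 91 against 36, 23 and 28. Only 1 of its values with Tet1CD reached 32, so Gcat was listed through the libraries without it, as were Tox3, Cldn3 and Gm11837. The other enzyme of amino acid breakdown, Prodh, had 48, 61, 52 and 65 against 28, 33 and 39 and fell by 0.62 ± 0.15 (limma adjusted p = 0.0409). In these enzymes, too, every value with Tet1CD lay under every value without it. Atp12a fell by 0.79 ± 0.17 (limma adjusted p = 0.0288), with 77, 102, 83 and 121 against 62, 46 and 39. Slc35f2 fell by 0.63 ± 0.15 (limma adjusted p = 0.0338), with 52, 55, 59 and 101 against 39, 31 and 32. Nup210 had 153, 169, 192 and 397 against 125, 106 and 116 and fell by 0.54 ± 0.10 (limma adjusted p = 0.0213). Foxo4 had 334, 459, 341 and 417 against 302, 249 and 243 and fell by 0.50 ± 0.13 (limma adjusted p = 0.0487). The 4 values without Tet1CD did not overlap the 3 with it in 10 of the 26 genes, against 15.7% of all genes in that direction: these 7 and Tuba1b, Pnpla3 and Arrb2.

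The other 19 genes did not pass the test in Vc- cells. Cdca7 (184, 243, 201 and 311 against 188, 132 and 136) had a change of -0.46 ± 0.16, and Pnpla3 (85, 99, 95 and 142 against 70, 57 and 75) of -0.44 ± 0.12. Rcor2 had 92, 92, 68 and 172 without Tet1CD and 88, 67 and 49 with it, a change of -0.31 ± 0.11 in which the groups overlapped. Bnip3 had 127, 123, 118 and 114 against 119, 137 and 148 (change 0.12 ± 0.10), and Bex1 had 138, 183, 140 and 235 against 143, 163 and 127 (-0.08 ± 0.08). Hnrnpu stood at 8450 in 6 of the 7 libraries and at 19681 in shp53+shDnmt1. Ankrd34a had the largest positive change, 0.29 ± 0.16, with 41, 41, 46 and 70 against 49, 41 and 74. Tuba1b (7021, 10782, 6566 and 10782 against 6311, 5732 and 5732) and Arrb2 (62, 70, 72 and 87 against 59, 47 and 43) did not overlap between groups but missed the threshold. Changes of the remaining 10 genes lay between -0.44 (Necab1) and 0.10 (Gm11837, which was at 0 in a library of each group, so its value depends on the pseudocount). In the model over 14 libraries described below, the fitted change of each of the 26 genes was more negative in Vc+ than in Vc- cells, with differences of -2.15 (Bnip3) to -0.69 (Ung) on the log2 scale in the 24 that were above 0 in every Vc+ library (median over all 26 -1.27). That direction is what the choice of genes favours, and it was not tested.

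The counts in Vc- cells rest on few residual degrees of freedom, 2 in the full fit. No gene of the set passed without the library labelled Dnmt1, without Tet1CD+Dnmt1, without shDnmt1 or without Tet1CD+shDnmt1, and 14 passed without the control or without Tet1CD. The median change lay between -0.55 and -0.26 over these omissions. Without the intensity trend in limma, 1 of the 26 genes fell, Ung (adjusted p = 0.0409), as did 100 of all genes in place of 791.

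**Figure D2:**
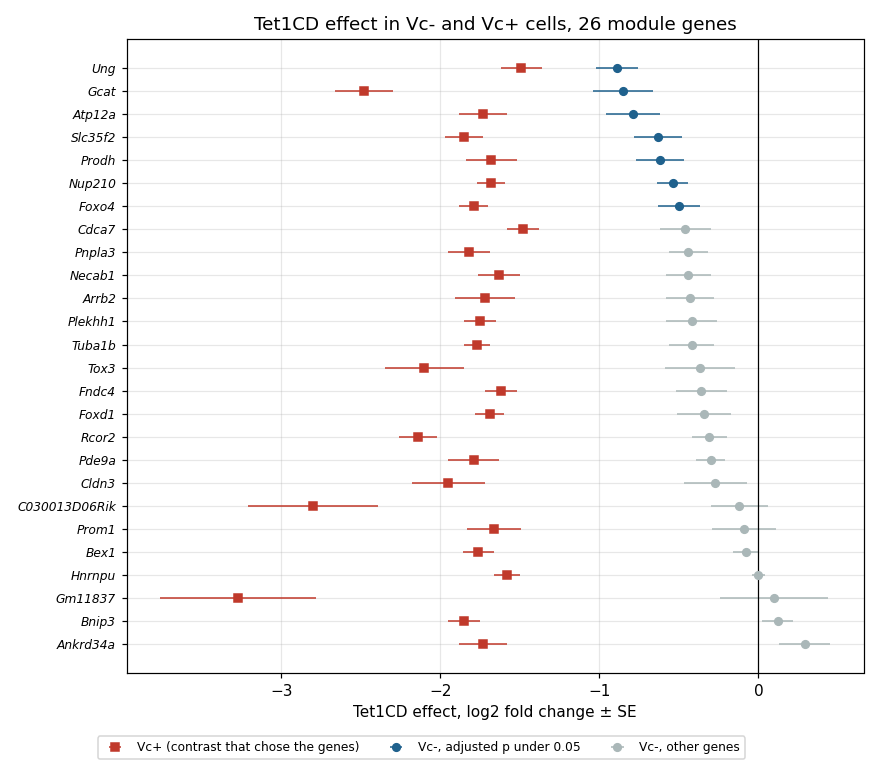
Fitted Tet1CD effect (log2 fold change with SE) of the 26 genes listed in both media, each fitted in its own table of 7 libraries. Squares are Vc+ cells, where the genes were chosen, and circles are Vc- cells, in dark blue for the 7 genes that fell, from Foxo4 at -0.50 to Ung at -0.89. Every square lies further below 0 than its circle, and the squares of C030013D06Rik and Gm11837 depend on the pseudocount because these genes reached 0.

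Promoter sequence was set beside 3 of the genes that stood lower in Vc+ cells and fell in Vc- cells, because Tet enzymes act on methylated cytosine next to guanine (CpG). The 250 bases before the RefSeq start site (GRCm38.p6, the build of mm10) are shown for Nup210 (chr6:91116827-91117076, minus strand), Gcat (chr15:79030624-79030873, plus strand) and Slc35f2 (chr9:53771285-53771534, plus strand), with each CpG in capitals.
Nup210: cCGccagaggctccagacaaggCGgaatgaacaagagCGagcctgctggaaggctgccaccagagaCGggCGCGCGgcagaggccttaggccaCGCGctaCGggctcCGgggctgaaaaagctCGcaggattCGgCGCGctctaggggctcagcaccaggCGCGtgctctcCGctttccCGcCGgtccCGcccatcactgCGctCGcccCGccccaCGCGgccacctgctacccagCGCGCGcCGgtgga
Gcat: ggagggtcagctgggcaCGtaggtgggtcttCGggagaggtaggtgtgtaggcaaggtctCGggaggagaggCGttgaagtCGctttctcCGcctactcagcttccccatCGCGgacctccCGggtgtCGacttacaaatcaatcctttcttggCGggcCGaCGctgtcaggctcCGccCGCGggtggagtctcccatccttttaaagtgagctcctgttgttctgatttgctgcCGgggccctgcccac
Slc35f2: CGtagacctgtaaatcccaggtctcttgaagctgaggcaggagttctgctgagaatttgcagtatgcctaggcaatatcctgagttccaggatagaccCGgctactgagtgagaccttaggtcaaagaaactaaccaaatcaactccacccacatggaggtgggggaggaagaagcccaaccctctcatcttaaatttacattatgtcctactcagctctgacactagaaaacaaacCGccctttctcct
These windows hold 30, 17 and 3 CpG sites. The ratio of observed to expected CpG was 0.95 for Nup210, 0.73 for Gcat and 0.21 for Slc35f2, so these 3 promoters range from rich to poor in CpG. Of the 44 genes, 29 (65.9%) had a RefSeq start within 1000 bases of the listed one. Because that is under 80%, no comparison of base composition between the set and other genes was made. DNA methylation itself was not measured in these libraries.

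Bnip3 stood lower with Tet1CD in Vc+ cells and did not pass the test in Vc- cells, and it is a textbook target of the hypoxia-inducible factors, which bind ACGTG. Its 250-base window (chr7:138909507-138909756, minus strand) is shown with ACGTG of either strand in capitals.
Bnip3: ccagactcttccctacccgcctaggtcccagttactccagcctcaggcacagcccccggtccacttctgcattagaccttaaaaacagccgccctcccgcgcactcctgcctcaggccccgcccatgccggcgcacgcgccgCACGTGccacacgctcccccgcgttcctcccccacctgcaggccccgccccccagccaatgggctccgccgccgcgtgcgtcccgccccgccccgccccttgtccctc
The matches on the plus and minus strand overlap and together read CACGTG, 108 bases before the start. ACGTG on either strand occurs in 22.5% of the 8552 windows of genes in the Vc+ table and CACGTG in 8.8%, and in 7 and 3 of the 29 windows of the set. Only ACGTG was marked in the window, and other forms of the site were not searched for. A match describes the letters and is not a binding site.

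Other genes of the pathways were counted from lists of 10 pathways, with the 44 genes taken out. The lists still hold genes that had been left out of the set by name, whose Vc+ values had been seen to be low with Tet1CD. Of the 20 names left out, 15 met the fold and floor and 5 did not. The names in the lists were not checked against the rule. Among the genes that fell in Vc+ cells, such names make up 3 in the hypoxia list and 3 in the epithelial list. They make up 6 in the neural list and 3 in the pluripotency list. Among the genes that fell in Vc- cells, such names make up 2 in the neural list and 0 in the hypoxia, epithelial and pluripotency lists. In the hypoxia and glycolysis list, which holds Bnip3 and, as written, Rcor2, 23 of 49 other genes fell with Tet1CD in Vc+ cells and 7 rose (median -0.32). In Vc- cells 6 of 44 fell and 5 rose (median -0.01). The prolyl hydroxylase gene Egln3 fell in Vc+ cells (-1.33 ± 0.09, limma adjusted p = 0.00043) and rose in Vc- cells (0.53 ± 0.12, limma adjusted p = 0.0314). The glucose transporter gene Slc2a1 fell in Vc+ cells (-1.38 ± 0.14, limma adjusted p = 0.00113) and had a change of -0.14 ± 0.11 in Vc- cells. In the epithelial list, which holds Cldn3, 10 of 19 other genes fell and 3 rose in Vc+ cells (median -0.55), and 4 of 17 fell and 3 rose in Vc- cells (median -0.11). The 3 listed of 7 keratinocyte markers, Sfn, Krt6a and Krt14, were higher with Tet1CD, summing to 363 to 647 without it and 1129 to 1354 with it in Vc+ cells, and to 136 to 278 and 297 to 423 in Vc- cells. Their part in these values was not tested. E-cadherin (Cdh1) fell in both (-1.04 ± 0.13 in Vc+ and -1.09 ± 0.24 in Vc- cells, limma adjusted p = 0.00204 and 0.0321). Of all genes, 23.6% fell and 20.7% rose in Vc+ cells, and 7.38% fell and 7.25% rose in Vc- cells. Without the intensity trend, at most 1 gene in each direction passed in any of the 10 lists in Vc- cells.

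In the pluripotency list, 13 of 17 genes outside the set fell and 4 rose in Vc+ cells (median -0.86). The genes that fell include those of Sox2, Klf4 and Oct4, which every SKOM culture also received by retrovirus, so transcripts of the cells and of the viruses cannot be told apart. In Vc- cells 0 of 11 passed in limma in either direction (0 at an unadjusted p under 0.05, and 0 without the intensity trend). The de novo methyltransferase Dnmt3b (-1.19 ± 0.20) and Tet2 (-1.36 ± 0.13) were among those that fell in Vc+ cells (limma adjusted p = 0.00533 and 0.00104). The 4 that rose in Vc+ cells were Dppa2 (3.22 ± 0.40), Gdf3 (1.54 ± 0.23), Klf5 (0.71 ± 0.10) and Tbx3 (0.44 ± 0.10). In the neural and synaptic list, which holds Bex1, 15 of 34 others fell and 6 rose in Vc+ cells (median -0.12), and 7 of 27 fell and 2 rose in Vc- cells (median -0.07). Its member Bex2, the paralog of Bex1 that missed the rule's limit, had a change of -2.31 ± 0.36 in Vc+ cells, given with no test because the same values placed it beside the limit. Bex2 is nonetheless counted among the 15 that fell. Of the 34 G1/S and replication genes, none of which is in the set, 31 fell in Vc+ cells (median -0.92) and 22 in Vc- cells (median -0.41, with 1 without the intensity trend). None rose, with 0 higher at an unadjusted p under 0.05 in either medium. This list moved beside Cdca7 and Ung, which are more abundant in dividing cells, and its part in their values was not tested.

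The remaining lists hold none of the 44 genes. For comparison, 23.6% of all genes fell and 20.7% rose in Vc+ cells, and 7.38% fell and 7.25% rose in Vc- cells. Of 13 BMP and Smad genes, 6 rose in Vc+ cells, as did 3 of 12 in Vc- cells. FGF and ERK feedback genes were split, with 4 up and 4 down of 16 in Vc+ cells and 2 up and 1 down of 16 in Vc- cells. Wnt genes had 7 up and 7 down of 21, and 2 up and 2 down of 19. Amino acid response genes had 7 up and 3 down of 20 with vitamin C, and 4 up and 5 down of 18 without it. Cholesterol genes fell in 12 of 29 cases in Vc+ cells, and 3 of 27 rose in Vc- cells.

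The p53 hairpin library stood highest among the libraries without Tet1CD for most of the genes. In Vc- cells shp53+shDnmt1 was above the other 3 in 21 of the 26 genes, against 33.9% of all genes, and in Vc+ cells in 33 of 44, against 33.7%. The Vc+ values had chosen the genes, so their count is a description. In Vc- cells Cldn3 reached 32 only with shDnmt1 and with shp53+shDnmt1, so it was listed through the p53 hairpin library. The Vc- count is therefore a description as well. The effect of the p53 hairpin was tested in a model over the 14 SKOM libraries (7 residual degrees of freedom). Its other terms were vitamin C, Tet1CD in each medium and the Dnmt1 constructs. Of the 26 genes, 4 rose with shp53 and none fell (limma, adjusted over 10711 genes), against 1.02% of all genes that rose and 3.21% that fell. The model includes the Vc+ libraries whose values chose the genes, so it is not independent of that choice, and in the Vc- table alone 1 gene passed, Hnrnpu, in the step from 8450 to 19681. All 26 changes were above 0, as were 51.4% of those of all genes, and their median was 0.37.

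Rcor2 rose by 1.09 ± 0.18 (limma adjusted p = 0.00918), from 68 with shDnmt1 to 172 with shp53+shDnmt1 in Vc- cells and from 230 to 440 in Vc+ cells. Nup210 rose by 0.93 ± 0.17 (limma adjusted p = 0.0114), from 192 to 397 and from 401 to 686. Bex1 rose by 0.67 ± 0.11 (limma adjusted p = 0.00661), from 140 to 235 and from 510 to 784. In these 3 genes the shp53+shDnmt1 library was the highest of all 7 in both media. Fndc4 rose by 0.61 ± 0.15 (limma adjusted p = 0.0451), from 46 to 92 and from 179 to 250. It missed the threshold in 11 of the 14 fits that each left out 1 library. Prom1 (0.74 ± 0.20) and Cldn3 (0.69 ± 0.26) had changes of similar size that did not pass. Cldn3 was listed in Vc- cells through the shp53+shDnmt1 library. The hairpin was present in 1 library per medium, always with shDnmt1, so a difference of that library cannot be told apart from the hairpin. The count was 0 without the Vc- shp53+shDnmt1 library, 2 without the Vc+ one and 2 without Vc- shDnmt1. It was 0 with a single Tet1CD term for both media and 0 in the Vc+ table alone.

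**Figure D3:**
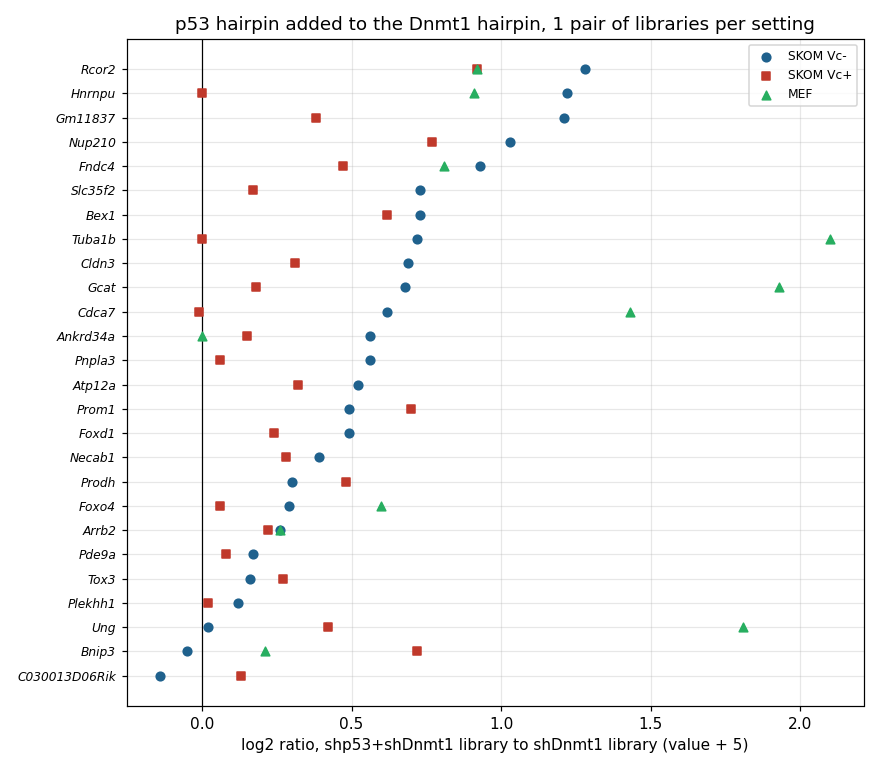
Log2 ratio of the shp53+shDnmt1 library to the shDnmt1 library (values plus 5) for the 26 genes listed in both media, ordered by the Vc- ratio. Each point is 1 pair of libraries: circles are Vc- cells, squares Vc+ cells and triangles MEFs, for the 11 genes listed there. Most points lie right of 0, with Rcor2 at 1.28, 0.92 and 0.92.

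For the Dnmt1 constructs, none of the 26 genes passed in the same model, which also includes the Vc+ libraries used to choose them. A p that misses the threshold does not show that the genes were level. For shDnmt1, 0 passed in limma (1 lower and 0 higher at an unadjusted p under 0.05, and 0 without the intensity trend), and the median change was 0.03. The range was -0.29 (Fndc4) to 0.24 (Foxd1) without Gm11837 (0.92) and C030013D06Rik (-0.36). The values of these genes depend on the pseudocount because they were at 0 in 1 or more libraries. In the same model 0.0467% of all genes fell with shDnmt1 and 0.00934% rose. At an unadjusted p under 0.05, 775 of all 10711 genes passed for shDnmt1 in either direction. For the libraries labelled Dnmt1, 0 passed (limma; 3 higher and 0 lower at an unadjusted p under 0.05; 0 without the trend), as did 0 of all genes. Unadjusted, 258 of all 10711 genes passed for Dnmt1 in either direction. The median change of the 26 genes was 0.07 and the range -0.26 to 0.27 without Gm11837 and C030013D06Rik. Dnmt1 itself was close to the control level in these libraries. The lower levels with Tet1CD in Vc+ cells were present in Tet1CD alone, with Dnmt1 and with shDnmt1, as the rule requires.

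In MEFs, 33 of the 44 genes (75.0%) were not listed, against 6.6% of the 11060 genes at or above the floor of 30 in Vc+ cells. The same comparison for the Vc- table gave 18 genes (40.9%) against 5.1%. The set was not matched to those genes on level. The 11 listed genes were Gcat, Rcor2, Tuba1b, Bnip3, Foxo4, Ung, Hnrnpu, Ankrd34a, Arrb2, Fndc4 and Cdca7.

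In the MEF Tet1-CD library each of the 11 was below the MEF control, with log2 ratios of -2.00 to -0.28 (median -0.52, against -0.01 over all genes). A ratio at least 0.58 below 0 was reached by 5 of the 11, Ankrd34a, Ung, Fndc4, Rcor2 and Cdca7, against 7.34% of all genes. In Ankrd34a, Ung, Fndc4 and Rcor2 the Tet1-CD value was under 32, so these 4 were listed through other libraries, and their count is a description. Ung had 41 in the MEF control and 13 with Tet1-CD, and Cdca7 had 65 and 33. These are ratios of 1 library to another, from a library that stood apart in its ranked values, with no replicate check. Its label could not be checked on Tet1, which was not listed in MEFs. The p53 hairpin was present in MEFs in 2 pairs of libraries that share no sample, shp53 against the control and shp53+shDnmt1 against shDnmt1. A log2 ratio of at least 0.58 in both pairs was reached by 6 of the 11 genes and by 6.28% of all genes. Cdca7 was 65 in the control, 204 with shp53, 49 with shDnmt1 and 140 with both hairpins. Rcor2 was 27, 88, 30 and 61 in the same order, and is listed because of its p53 hairpin values. The other 4 were Gcat, Tuba1b, Hnrnpu and Fndc4, while Bnip3 had ratios of -0.08 and 0.21.

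Libraries with the same constructs were set side by side across the media, each ratio centred on the median of the 10711 genes in both tables. The tables were normalized separately and the Vc+ values had chosen the genes, so the ratios are a description. Without Tet1CD, 22 of the 26 genes were higher with vitamin C in all 4 pairs, as were 26.4% of all genes, and the median log2 ratio was 0.81. With Tet1CD, 19 of 26 were lower with vitamin C in all 3 pairs, as were 22.6% of all genes, and the median was -0.66. Bnip3 had ratios of 0.72 to 1.52 without Tet1CD and -1.31 to -0.96 with it, and Bex1 of 1.06 to 1.26 and -0.66 to -0.25. For both, the libraries with vitamin C were the higher ones without Tet1CD and the lower ones with it. Ung was nearly level without Tet1CD (-0.08 to 0.40) and lower with it (-0.76 to -0.34). Prom1 had the same form, with -0.14 to 0.37 and -1.69 to -1.22. Atp12a was higher without Tet1CD (0.58 to 0.99) and lay on either side of 0 with it (-0.50 to 0.50). The genes thus differed in which of the compared levels lay apart between the media.

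**Figure D4:**
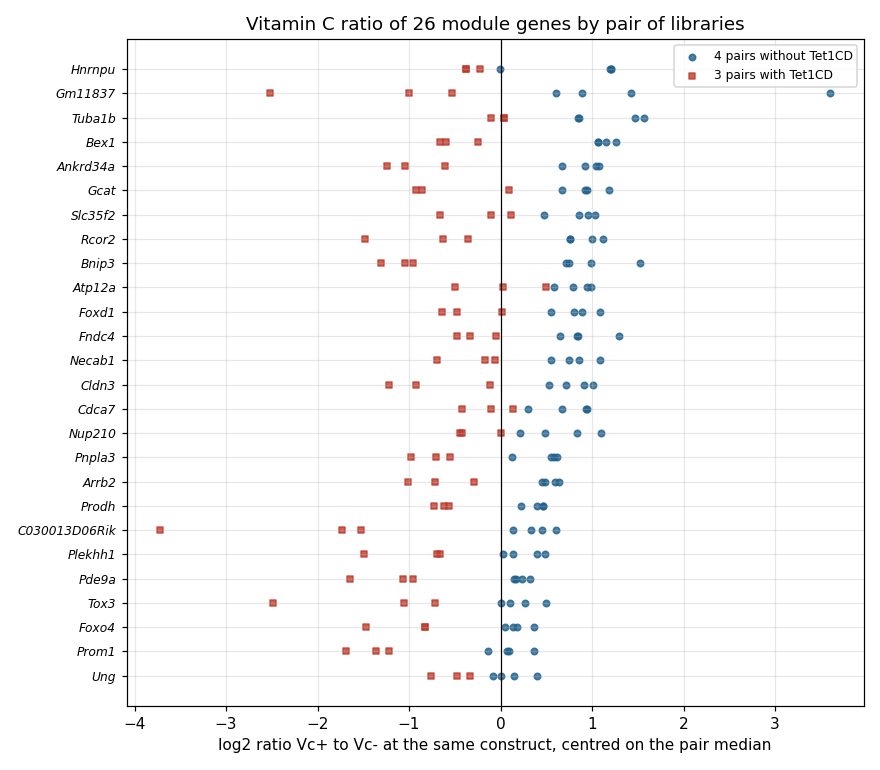
Log2 ratio of the Vc+ to the Vc- library of the same construct, centred on the median of each pair, for 26 genes ordered by their median over the pairs without Tet1CD. Circles are the 4 pairs without Tet1CD and squares the 3 pairs with it. Circles lie mostly above 0 (medians from 0.08 for Ung and Prom1 to 1.20 for Hnrnpu) and squares mostly below it. Hnrnpu stood at the ceiling in all 4 Vc+ libraries without Tet1CD, where values move in steps, so the size of its ratio is uncertain.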

How the data were processed

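RNA of 21 mouse libraries was read from 3 tables of 7 (MEF, Vc- and Vc+). Libraries were grouped by sample titles. The authors deposited a score per gene, a whole number already normalized within its table. Bowtie, RSEM and mm10 are named in the submitters' processing notes. The sources used here do not give the normalization, gene filter or strand setting. Such values carry no depth, so no counting error was computed.

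Values were transformed as log2(value + 5), genes whose mean over the fitted libraries reached 10 were kept, and limma 3.58.1 (R 4.3.3, empirical Bayes with intensity trend) was fitted with terms for Tet1CD, Dnmt1, shDnmt1 and shp53 per table, or over 14 SKOM libraries with a Tet1CD term per medium, with Benjamini-Hochberg adjustment at 0.05. The fitting was tested on simulated data.

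The genes, lists and tests were chosen with earlier results of these data known. Values in full were given, by a rule, for genes with the largest ratios, those past a test, those with the highest values, up to 4 per role and those nearest the limit. Roles were assigned after the genes were known. The values of 1 gene of the set are not reported here. Promoters came from RefSeq (GRCm38.p6) and coordinates from GENCODE M21. Alternatives were the pseudocount, low-value filter, trend, normalization, model terms and each library left out.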

Additional observations from a re-analysis of the deposited data

How the results depend on the processing

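With 26 genes in Vc- cells, 7 fell in the main analysis; without the intensity trend in limma 1 did, and leaving out each library in turn gave 0 to 14. Their median change was -0.40 and lay between -0.55 and -0.26 with a library left out. Pseudocounts of 1 and 16, no filter or a mean of at least 50, quantile normalization, median centring, a Tet1CD term alone and the 14-library model kept the count within 1.5 times of 7, and none rose under any of these. Over all genes 791 fell and 777 rose, against 100 and 204 without the trend and 2 to 1202 and 3 to 1158 with a library left out. For shp53, 4 of 26 genes rose; the count was 0 with 1 Tet1CD term for both media, 1 in the Vc- table alone, 0 in the Vc+ table alone and 0 to 4 with a library left out. Over all genes 109 rose and 344 fell with shp53, against 0 and 1 with 1 Tet1CD term, 4 and 9 in the Vc- table and 0 and 2 in the Vc+ table; 68 rose without the trend, and 5 to 304 and 33 to 544 with a library left out. For shDnmt1 and Dnmt1 the count of the 26 genes was 0 under each alternative. The set itself held 44 genes, 137 at a fold of 2, 18 at 3, 52 with a floor of 20, 28 with a floor of 60 and 260 when medians were compared at 2.5. The cause of these shifts was not tested, except that a fit without a library can have fewer residual degrees of freedom. No pairing by replicate number was possible because no group has more than 1. Libraries that share a Dnmt1 construct are matched through the terms of the model. Depth is unknown.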
